A study of Saccharomyces cerevisiae with 2 samples.

Results

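Inositol-responsive phospholipid synthesis genes of Saccharomyces cerevisiae were examined in RNA-seq data of the carotenoid producer BL03-D-4. The 10 genes were taken by name and comprise 7 genes of enzymes and permeases (INO1, ITR1, CHO1, CHO2, OPI3, PSD1 and HNM1) and 3 genes of regulators (INO2, INO4 and OPI1). All 10 were found among the 7126 rows used from the deposited table. The symbol in the table gave 6 of them, and the locus tag gave the other 4 (ITR1, PSD1, INO4 and OPI1). All of them passed the filter on low values, a mean TPM of 1 or higher, as did 6350 rows in all.

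BL03-D-4 was grown for 24 h in YPD or in YPM, a modified YPD, and 1 library was sequenced per medium. The study asked which genes change between these media, because the strain accumulated more carotenoid in YPM. The labels write YPD, and the paper names the YPD of this comparison YPD2, a medium with yeast extract of another manufacturer than that of YPM. YPM also contained added potassium phosphate, magnesium, potassium and sodium sulfates and a trace metal solution, so the effects of single components cannot be told apart. The paper places the sampled cells in stationary phase and reports different growth curves and a higher final cell mass in YPM. A difference in growth state between the libraries therefore cannot be told apart from the medium. The inositol and choline content of both media is not given in the sources used here.

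The strain is derived from the haploid BY4742 and is the same in both media. GAL80 was replaced by crtB, crtI and crtE, the genes for carotenoid synthesis, which all stand behind the HSP26 promoter, a truncated HMG-CoA reductase was integrated behind the CIT1 promoter, and ALD6 was deleted. GAL80, ALD6 and the auxotrophic markers HIS3, LEU2, LYS2 and URA3 were listed at 0 in both libraries. Among genes that mark the mating type, MF(ALPHA)1 was listed at 427 TPM in YPD and 317 TPM in YPM, and MFA1 and MFA2 were at 0, while the receptor gene STE2 of the other mating type was low but not at 0 (7.43 and 8.70 TPM).

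Yeast makes phosphatidylinositol from inositol, and phosphatidylserine, phosphatidylethanolamine and phosphatidylcholine in a chain of steps from the shared precursor CDP-diacylglycerol. Many genes of these steps carry an element called UAS-INO in their promoters, which is bound by a heterodimer of the activators Ino2 and Ino4. The repressor Opi1 is held at the endoplasmic reticulum by phosphatidic acid, and when inositol is supplied and phosphatidic acid is consumed, it enters the nucleus and lowers transcription of these genes.

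Stretches that match the core of UAS-INO are shown first, and their function was not tested. The 500 bases before the start codon of each gene were searched on both strands for CATGTG, the core of UAS-INO (CACATG where it lies on the opposite strand). The core was present upstream of 9 of the 10 genes, all 7 enzymes and permeases among them, and upstream of 13.1% of 6021 protein-coding genes. These genes are known in part because they carry the element, so the share is no independent finding. The stretch of INO1 covers both of its cores, and for the other genes the core nearest to the start codon is printed with 12 bases on each side. Sequences are from the R64 reference genome, on the strand of the gene from 5′ to 3′, with the core in capitals.

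INO1 (chrX:136094-136188): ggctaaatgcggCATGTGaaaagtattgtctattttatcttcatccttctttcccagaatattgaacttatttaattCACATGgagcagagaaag
ITR1 (chrIV:1445671-1445700): ccttccccaccgCATGTGaaaaaagctcga
PSD1 (chrXIV:317818-317847): agcaggcacaagCATGTGgaaaatttgttc
OPI3 (chrX:573066-573095): tatgcaaacccaCACATGcatcgttggttt
CHO1 (chrV:208616-208645): cctttgagctttCACATGgacccatctaaa
HNM1 (chrVII:364166-364195): tctcttttttttCACATGcgcagaacctat
CHO2 (chrVII:802161-802190): ttattcccttctCATGTGaagagttcacac
INO2 (chrIV:699595-699624): aagtacaacaCACATGTGaatttttttcag
INO4 (chrXV:111990-112019): aaacaaaatattCACATGtttttctcacct

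The stretch of CHO2 lies on the plus strand of the chromosome and all others on the minus strand. In INO2 the core overlaps its own reverse complement, which makes the palindrome CACATGTG, and a second core of CHO2 is of the same form. Such a palindrome was counted as 1 core. INO1, OPI3, PSD1 and CHO2 had 2 cores each, ITR1 had 3, and CHO1, HNM1, INO2 and INO4 had 1. At least 2 cores were found upstream of 0.997% of protein-coding genes. No core was found upstream of OPI1 in this window, which says only that these letters are not there. The longer form CATGTGAAAT was found upstream of none of the 10 genes and of 0.0664% of protein-coding genes. The 15 separate cores of the 10 genes began 121 to 392 bases before the start codon. Of the matches, 2 lie within a neighbouring annotated gene, 1 upstream of ITR1 and 1 upstream of OPI3.

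**Figure D1:**
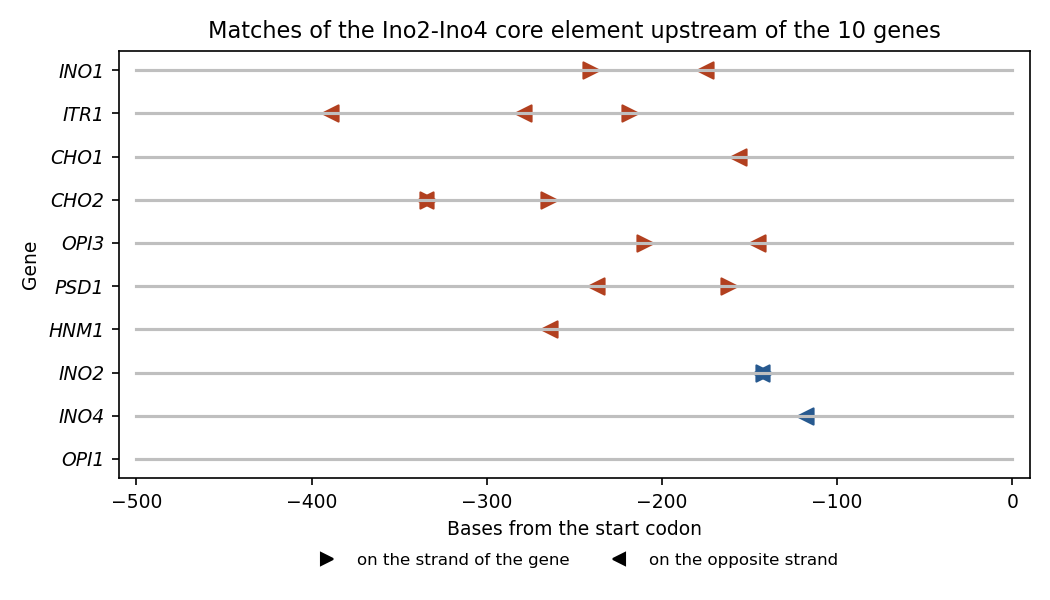
Positions of the core CATGTG in the 500 bases before the start codon of the 10 genes, with the distance from the start codon in bases on the x axis and the strand given by the direction of the triangle. Enzymes and permeases are in red and regulators in blue, overlapping triangles in CHO2 and INO2 are the palindrome, and OPI1 has no match.

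All 10 genes were listed lower in YPM than in YPD, as were 63.1% of the 6350 rows that passed the filter. The authors estimated the values with RSEM as TPM, which corrects for transcript length and scales each library to a fixed total. The rows used here summed to 937091 TPM in YPD and 925918 TPM in YPM, not to the same total. For the log2 ratio of YPM to YPD, 1 TPM was first added to both values, and the limit for calling a gene lower or higher was a log2 ratio of 1, which is 2-fold on this scale. No replicate exists for either medium, so the differences describe this pair of libraries and carry no p-value. TPM keeps no record of read depth, so the counting error is unknown. TPM is also a share of each library, so less RNA of a gene per cell, fewer cells that express it and more RNA of other genes cannot be told apart.

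**Figure D2:**
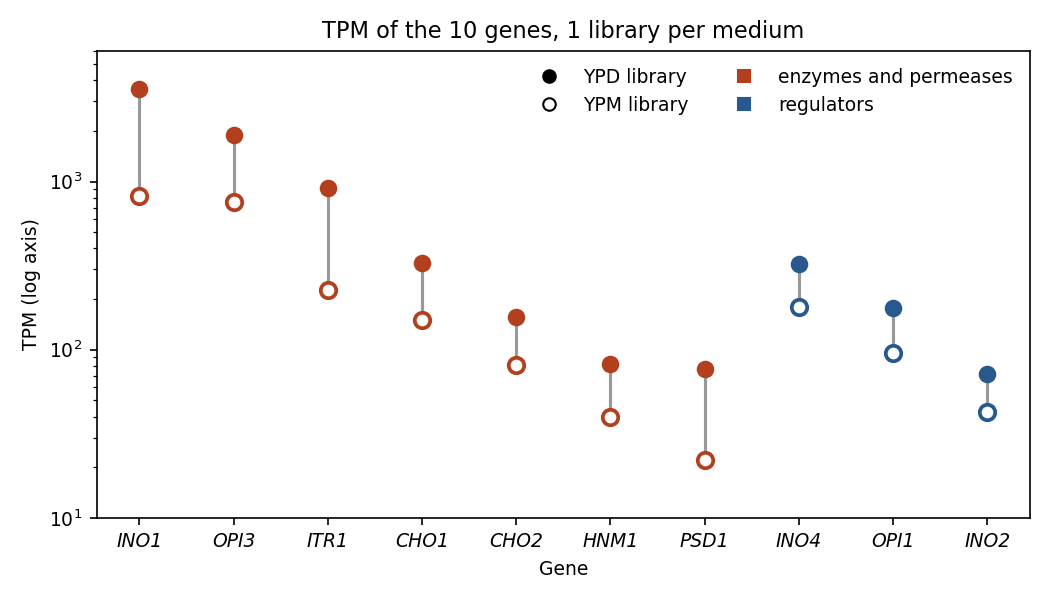
TPM of the 10 genes on a log axis in the YPD library (filled circles) and the YPM library (open circles), with enzymes and permeases in red and regulators in blue. Each circle is 1 library with no error bar, and in every gene the YPM value lies below the YPD value. INO1 has the highest values (3545 TPM in YPD and 821 TPM in YPM). INO2 has the lowest value in YPD (71.8 TPM, with 42.8 TPM in YPM), and PSD1 the lowest in YPM (22.2 TPM).

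Of the 7 enzymes and permeases, 6 were lower in YPM past the limit, beside 5.15% of all rows tested. Among the 2837 rows whose mean TPM lies within the range of the 10 genes, 4.41% were lower past the limit. The median log2 ratio of the 7 genes was -1.33, and that of all rows tested was -0.13. After YPM was rescaled to the median gene, 4 of the 7 were lower past the limit, beside 255 rows lower and 256 rows higher in all, where the deposited TPM gave 327 and 208. The summed value of the 7 genes was 7003 TPM in YPD and 2096 TPM in YPM, a ratio of 3.34. Abundant genes weigh most in this sum, with INO1 alone at 3545 TPM in YPD and 821 TPM in YPM. Single genes of the 7 ran from 1.91-fold (CHO2) to 4.32-fold (INO1) lower.

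The supply of inositol showed the largest differences among the 10 genes. INO1 (YJL153C, chromosome X, 134332 to 135933, minus strand) encodes inositol-3-phosphate synthase, which makes inositol phosphate from glucose 6-phosphate. It was listed at 3545 TPM in YPD and 821 TPM in YPM, a 4.32-fold lower TPM and a log2 ratio of -2.11. INO1 held rank 24 of all rows by TPM in YPD and rank 176 in YPM. By its log2 ratio it was rank 62 from the lowest of the 6350 rows.

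ITR1 (YDR497C, chromosome IV, 1443713 to 1445467, minus strand) encodes the major inositol permease of the plasma membrane. It was listed at 915 TPM in YPD and 227 TPM in YPM, 4.04-fold lower, with a log2 ratio of -2.01. The TPM of both genes differed between the libraries by similar factors, and that of INO1 was 3.87 times that of ITR1 in YPD and 3.62 times in YPM. Ratios of this kind are taken within a library and do not depend on the scaling between libraries.

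ITR2 (YOL103W), the paralog of ITR1 and the minor inositol permease, had no core in its promoter window and was listed at 35.3 TPM in YPD and 29.9 TPM in YPM, with a log2 ratio of -0.23. The TPM of ITR1 was 25.9 times that of ITR2 in YPD and 7.59 times in YPM. Neither coding sequence shares a stretch of 50 bases with any other place in R64.

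The chain from CDP-diacylglycerol to phosphatidylcholine was lower at each of its 4 genes among the 10, past the limit at 3 of them. CHO1 (YER026C, chromosome V, 207644 to 208474, minus strand) encodes phosphatidylserine synthase, the first enzyme of the chain. It was listed at 327 TPM in YPD and 150 TPM in YPM, with a log2 ratio of -1.12. CHO1 lay close to the limit, and its log2 ratio was -0.98 after YPM was rescaled so that the median gene did not differ.

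PSD1 (YNL169C, chromosome XIV, 316169 to 317671, minus strand) encodes the mitochondrial phosphatidylserine decarboxylase, which makes phosphatidylethanolamine. It had the lowest values of the 10 genes in YPM, with 76.8 TPM in YPD and 22.2 TPM in YPM, 3.46-fold lower, and its log2 ratio was -1.74. PSD2 (YGR170W), the decarboxylase of the Golgi and endosomes, has 2 cores in its own window and was listed at 47.6 TPM in YPD and 30.9 TPM in YPM, with a log2 ratio of -0.61. The order of both decarboxylases differed between the libraries: PSD1 was 1.61 times PSD2 in YPD and 0.720 times PSD2 in YPM.

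CHO2 (YGR157W, chromosome VII, 802440 to 805049, plus strand) and OPI3 (YJR073C, chromosome X, 572315 to 572935, minus strand) encode the methyltransferases that turn phosphatidylethanolamine into phosphatidylcholine. CHO2, which adds the first methyl group, was listed at 156 TPM in YPD and 81.6 TPM in YPM. Its log2 ratio of -0.93 did not reach the limit, the only such value among the 7 genes. OPI3, which adds the remaining methyl groups, was listed at 1901 TPM in YPD and 756 TPM in YPM, with a log2 ratio of -1.33. OPI3 exceeded CHO2 by 12.2 times in YPD and by 9.26 times in YPM, so the later step stayed the more abundant transcript in both media.

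HNM1 (YGL077C, chromosome VII, 362225 to 363916, minus strand) encodes the choline permease, which feeds the other route to phosphatidylcholine. It was listed at 81.8 TPM in YPD and 39.5 TPM in YPM, 2.07-fold lower, with a log2 ratio of -1.03. This is the smallest difference that counted as changed among the 10 genes. It fell short of the limit under 4 of 9 other settings, with the smallest value, -0.90, after rescaling to the median gene.

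The regulators stood nearer to the limit than to 0, and none of the 3 passed it. INO4 (YOL108C, chromosome XV, 111431 to 111886, minus strand), an activator of the basic helix-loop-helix class, was listed at 322 TPM in YPD and 181 TPM in YPM, with a log2 ratio of -0.83. INO2 (YDR123C, chromosome IV, 698554 to 699468, minus strand), its partner, was listed at 71.8 TPM in YPD and 42.8 TPM in YPM, with a log2 ratio of -0.73. OPI1 (YHL020C, chromosome VIII, 66242 to 67456, minus strand), the repressor that acts through Ino2, was listed at 176 TPM in YPD and 95.9 TPM in YPM, with a log2 ratio of -0.87. Activators and repressor were thus listed lower in YPM by similar factors, 1.68-fold for INO2, 1.78-fold for INO4 and 1.84-fold for OPI1.

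The balance of the regulators to each other was close in both libraries. INO4 was 4.48 times INO2 in YPD and 4.21 times in YPM, and OPI1 was 2.45 times INO2 in YPD and 2.24 times in YPM. INO1, in contrast, was 49.3 times INO2 in YPD and 19.2 times in YPM. These are RNA levels and hold no measure of where the Opi1 protein was in the cell.

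The log2 ratios of the enzymes and permeases ran from -2.11 to -0.93 and those of the regulators from -0.87 to -0.73. Both ranges were therefore apart, but CHO2 and OPI1 at their edges differed by less than the distance between neighbouring enzymes. The median of the regulators was -0.83, and the median of the enzymes and permeases was lower by a log2 difference of -0.50. Genes are not replicates of a condition, and this difference was not tested. With a limit of 0.58 in place of 1, about 1.5-fold, all 7 enzymes and permeases and all 3 regulators counted as lower, beside 15.1% of all rows. A log2 ratio below 0 alone was found in 63.1% of all rows.

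**Figure D3:**
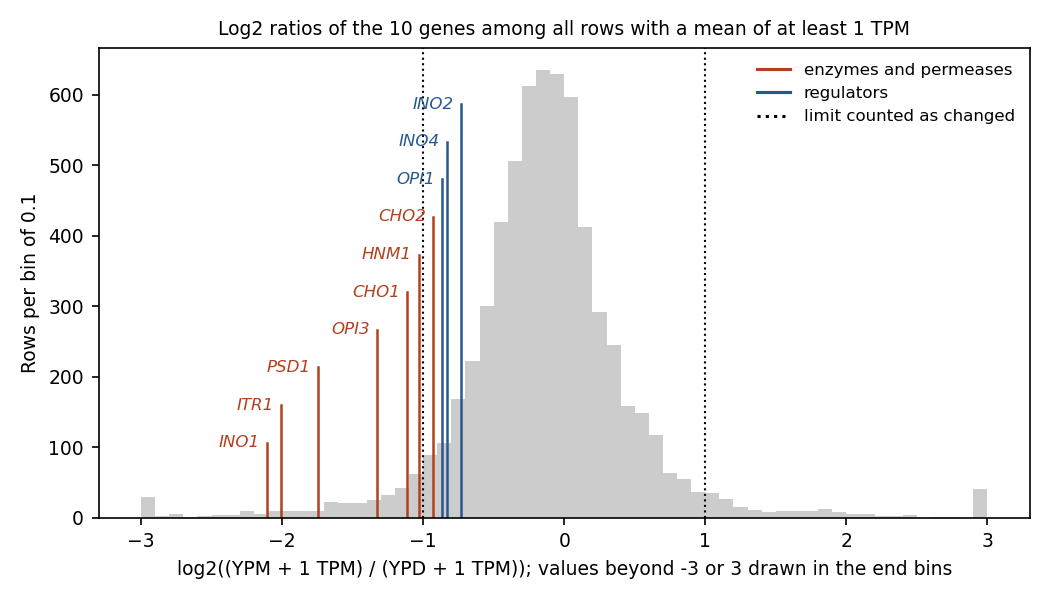
Histogram of the log2 ratio of YPM to YPD over the 6350 rows that passed the filter (grey, rows per bin), with lines of arbitrary height at the 10 genes and dotted lines at the limit of 1 in either direction. The 7 enzymes and permeases in red lie between -2.11 and -0.93, and the 3 regulators in blue lie between -0.87 and -0.73, all below the median of -0.13.

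None of the 10 coding sequences shares a stretch of 50 bases with another place in R64, and none overlaps another gene of that annotation. All 10 have a single coding segment. The build and the use of strand behind the deposited values are not stated, so overlap with further transcripts of the authors' annotation was not examined.

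A further 55 genes of phospholipid metabolism were read in the same libraries, all of which passed the filter. Their median log2 ratio was -0.22, close to the median of all rows, and 3 of them were lower and 1 was higher past the limit. The lower genes were CDS1, CKI1 and NTE1, which is 5.45% of the 55 genes, beside 5.15% of all rows.

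CDS1 (YBR029C) encodes the enzyme that makes CDP-diacylglycerol, the precursor of the whole chain. It was listed at 108 TPM in YPD and 32.8 TPM in YPM, 3.30-fold lower, with a log2 ratio of -1.69, a value between those of PSD1 and OPI3. CKI1 (YLR133W), the choline kinase that acts on choline after its uptake by Hnm1, was listed at 73.8 TPM in YPD and 29.7 TPM in YPM, with a log2 ratio of -1.28. Both genes carry 1 core in their windows, shown here as for the genes above, with CDS1 on the minus strand and CKI1 on the plus strand of the chromosome.

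CDS1 (chrII:297887-297916): cagatgggatgaCATGTGaaaagtgtaaca
CKI1 (chrXII:408240-408269): tggtataatattCACATGgtgctctaccgt

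In the Kennedy pathway, which uses free choline and ethanolamine, CKI1 was the only 1 of 6 genes past the limit. CPT1, the cholinephosphotransferase of the last step, had a log2 ratio of -0.88, and PCT1, which activates phosphocholine between them, had a log2 ratio of -0.05. The ethanolamine kinase gene EKI1 was highest at 0.06 although it has a core in its window, and the median of the 6 genes was -0.13.

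The 5 other genes of inositol metabolism had a median log2 ratio of -0.23 and none passed the limit. PIS1, the phosphatidylinositol synthase that uses the inositol, was lowest at -0.58, and INM1, an inositol monophosphatase that acts after Ino1, was highest at 0.61. TAM41, the mitochondrial enzyme that also makes CDP-diacylglycerol, had a log2 ratio of -0.08, where CDS1 had -1.69. Among the 11 genes of phosphatidic acid and diacylglycerol, the median was -0.01, from the acyltransferase gene SCT1 at -0.91 to SPO7, part of the phosphatase that activates Pah1, at 0.34.

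The 6 phosphoinositide kinases had a median log2 ratio of -0.31, from STT4 at -0.74 to FAB1 at -0.24, and the 5 cardiolipin genes a median of -0.22, from the synthase gene CRD1 at -0.29 to CLD1 at 0.15. None of either list passed the limit. In the list of 8 genes of phospholipid turnover and headgroup uptake, NTE1, a phosphatidylcholine phospholipase, was listed at 13.3 TPM in YPD and 5.46 TPM in YPM, with a log2 ratio of -1.14 on low values. PLB3, a phospholipase B, had 34.6 TPM in YPM and was listed at 0 in YPD. A listed 0 can be a failed estimate, so no fold is given for it. PLB3 is the 1 gene counted as higher, a call that 3.28% of all rows had.

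Other regulators of INO1 were near the median of all rows, with a median log2 ratio of -0.06 over 8 genes and none past the limit. SIN3, a corepressor subunit, was lowest at -0.56, and SCS2, which anchors Opi1 at the endoplasmic reticulum, was highest at 0.14. HAC1 and IRE1, the transcription factor and the sensor of the unfolded protein response, had log2 ratios of -0.00 and -0.29. The fatty acid synthesis genes known to carry UAS-INO had log2 ratios of -0.51 for ACC1, -0.10 for FAS2 and -0.04 for FAS1. FAS1 had no match of CATGTG in its window, so it is counted here as a gene without the core.

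**Figure D4:**
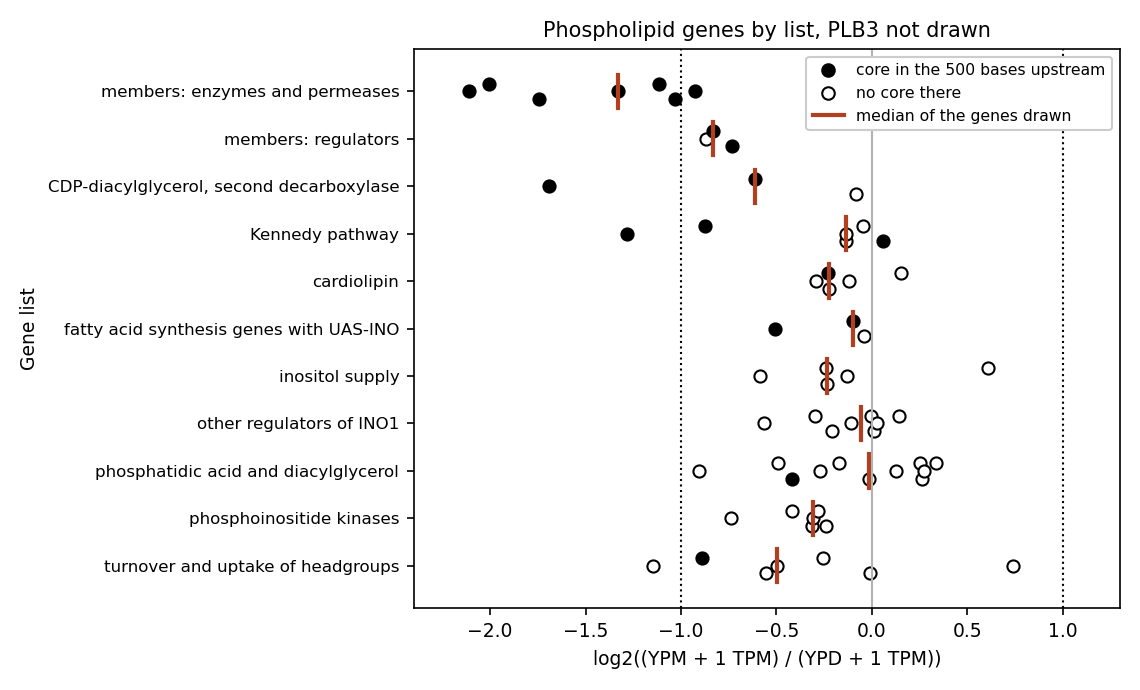
Log2 ratio of YPM to YPD for each phospholipid gene by list, filled where the core CATGTG lies in the 500 bases before the start codon, with the median of the genes drawn as a red bar and dotted lines at the limit of 1. PLB3, listed at 0 in YPD, is not drawn, the 7 enzymes and permeases and the 3 regulators lie lowest by median, and CDS1 at -1.69 and CKI1 at -1.28 are the lowest of their lists.

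The presence of the core was compared with the values as a description. Of the 55 further genes, the 10 with a core had a median log2 ratio of -0.56 with 2 lower past the limit. The 45 without one had a median of -0.13 with 1 lower. These lists were chosen with earlier results of these data known, and the fatty acid synthesis list by its UAS-INO. This split is therefore no independent finding. Over all tested protein-coding genes, 6.91% of the 752 with a core and 3.63% of the 5010 without one were lower past the limit, and the medians were -0.17 and -0.13. These shares include the 10 genes, and without the phospholipid genes of all lists 6% of 733 genes with a core were lower. Most genes with these letters upstream therefore did not pass the limit, and OPI1, with no match, had a log2 ratio of -0.87.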

How the data were processed

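The authors prepared polyA-selected libraries of BL03-D-4 and deposited TPM estimated with RSEM, 1 column for each of the 2 libraries. The submitters' processing notes also name HISAT2 and StringTie. Build, annotation, read length and strand are not given in the sources used here. The column MYPD was taken as YPM, which the labels describe as modified YPD. Of the 7126 rows, 6044 matched RefSeq locus tags of R64, the source of symbols, loci and promoter sequences. The design assumed no replicates, and a log2 ratio after adding 1 TPM replaced a test. The calls were tested on simulated data with planted differences past the limit and low noise. That says nothing of calls near the limit or of the noise between these libraries.

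The genes and lists were chosen with earlier results of these data known. All 10 members are named, and from each further list the genes past the limit and the highest and lowest. Genes named outside this rule (ITR2, PSD2, CPT1, PCT1, HAC1, IRE1, FAS2, MHO1, GUT1 and GAT4) and the promoter window of 500 bases were chosen after the values were seen. Alternatives changed the pseudocount, the filter, the scaling and the limit. In 4 rows the table was emptied for this work. These rows are not among the 7126, so ranks, shares and summed TPM leave them out. Scripts ran in Python 3.11.15 with numpy 2.4.6, pandas 2.3.3 and matplotlib 3.10.9.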

Additional observations from a re-analysis of the deposited data

How the results depend on the processing

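Under the 9 alternatives, all 90 log2 ratios of the 10 genes stayed below 0, and 81 kept their side of the limit. The changed filters and the limit of 0.58 repeat the log2 ratios of the main setting. Their signs could not change, and the filters could not change a call of these genes. The call was lost 5 times, by HNM1 under 4 settings and by CHO1 under 1, and gained 4 times, all with the limit of 0.58. In all 9 alternatives every enzyme and permease had a lower log2 ratio than every regulator. Only the changed pseudocounts could readily alter this order, because a rescaling moves all genes of a library nearly alike. Rescaling YPM to the median gene brought the median of all rows from -0.13 to -0.00, and the 10 genes moved with it. With the limit of 0.58, the 3 regulators counted as lower at their median of -0.83, the further phospholipid genes gave 9 lower and 3 higher, and all rows gave 962 lower and 508 higher, where the limit of 1 gave 327 and 208. After rescaling to the median gene, 255 rows were lower and 256 higher at the limit of 1. With 5 TPM added, 203 rows were lower. With no pseudocount PLB3 has no ratio, which left 0 further genes higher. With a promoter window from 250 bases before to 50 bases after the start codon, 7 of the 10 genes had the core, beside 6.91% of protein-coding genes. No paired analysis was possible because each medium had 1 library. Depth is unknown in TPM, so how far counting error limits the low values of PSD1, HNM1 and INO2 could not be computed.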

Other observations

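Genes with at least 2 cores in the 500 bases before the start codon were few, 57 of those tested, and 5 of the 10 genes described above were among them. Of the 57, 6 were lower in YPM past the limit (10.5%) and 1 was higher, beside 5.15% lower among all rows. Without the 5 genes described above, 2 of the remaining 52 were lower (3.85%), beside 3.63% of protein-coding genes with no core. The lower genes were INO1, ITR1, PSD1 and OPI3 and, outside the phospholipid genes, MHO1 and GUT1. MHO1 (YJR008W) was listed at 1028 TPM in YPD and 433 TPM in YPM, with a log2 ratio of -1.24. GUT1 (YHL032C), the glycerol kinase gene, was listed at 207 TPM in YPD and 102 TPM in YPM, with a log2 ratio of -1.02, just past the limit. GAT4 (YIR013C) was the 1 that was higher, on low values of 1.02 TPM in YPD and 3.04 TPM in YPM. None of these values has a replicate check.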
